A study of Mus musculus with 12 samples.

Results

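A set of 10 genes best known from heart muscle (Des, Sgcd, Tnni3, Tnnt2, Tnnc1, Actc1, Myl2, Myh6, Myh7 and Ttn) were followed in mouse hypothalamus. They were chosen by name, as genes of the dilated cardiomyopathy pathway, and every non-control probe carrying 1 of the 10 names was taken. This gave 23 of the 41174 non-control probes on the array. RNA came from male outbred ICR mice that started at 3 weeks of age, adapted to drinking tubes with water on days 1 to 5, and were sacrificed on day 51 per the labels, while the study's text gives a later day. The water group had 2 tubes of water, and alcohol mice could choose between water and a tube of 5% or 10% alcohol. The 12 arrays held 3 pools of water mice (9 mice in all) and 9 pools of alcohol mice (19 mice in all, 1 to 3 per pool), which the labels call low, early high and late high alcohol drinkers, 3 pools each. The study's pools of mice that drank less alcohol held more mice each than its other alcohol pools, so pool size and intake cannot be told apart. The labels do not tie the study's pool names to single arrays.

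The genes encode parts of the contractile machinery of striated muscle and of its link to the cell membrane. Desmin is the intermediate filament that ties sarcomeres together, and delta-sarcoglycan belongs to the complex that joins the cytoskeleton to the matrix outside the cell. Troponins I, T and C form the calcium switch on the actin filament, myosin light and heavy chains make up the thick filament, and titin is the giant spring that spans the sarcomere. Mutations in most of these genes can cause dilated cardiomyopathy, in which the heart chamber widens and pumps poorly. In brain they are not known as abundant transcripts of neurons, although muscle cells of blood vessels make desmin.

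Of the 23 probes, 13 were well above background on all 12 arrays, and they covered 8 of the 10 genes. The probes of Des and Sgcd that the results rest on missed this mark on 1 array, that of water pool 1. Another 5 probes, 1 of Tnnt2 and 4 of Ttn, were well above background on the array of low drinker pool 2 and on no other. The second Sgcd probe and 1 Ttn probe stayed below this mark throughout. Across all probes of the array, 63.4% were well above background on all 12.

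The 60-base probes of Des, Sgcd and Tnni3, the genes the study picked, and of Tnnt2, the most uneven gene here, are given as the array files list them, 5′ to 3′, with their positions on mm9. The desmin probe lies at chr1:75363404-75363629 on the plus strand and was printed on 10 spots of each array. The Sgcd probe lies at chr11:46794345-46794404 on the minus strand. Of the troponin I probes, A_51_P386983 lies at chr7:4472043-4472102 and A_52_P563123 at chr7:4471117-4471176, both on the minus strand. The Tnnt2 probe lies at chr1:137747976-137748288 on the plus strand. Capitals in the troponin I probe A_52_P563123 mark bases 24 to 43, which are identical to the forward primer that the study designed for real-time PCR of Tnni3. No other primer of the study lay within a probe of the 10 genes.
Des A_51_P335969: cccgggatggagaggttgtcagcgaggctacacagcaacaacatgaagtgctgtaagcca
Sgcd A_51_P389004: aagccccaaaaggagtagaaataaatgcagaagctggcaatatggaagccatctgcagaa
Tnni3 A_51_P386983: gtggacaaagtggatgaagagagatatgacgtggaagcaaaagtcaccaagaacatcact
Tnni3 A_52_P563123: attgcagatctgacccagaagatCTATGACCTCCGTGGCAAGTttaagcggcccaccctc
Tnnt2 A_51_P338262: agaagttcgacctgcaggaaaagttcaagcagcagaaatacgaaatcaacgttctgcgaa

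Values below are log2 of the background-corrected signal minus log2 of the 75th percentile of the same array, so that 0 is a spot as bright as the 75th percentile and -1 is a signal lower by a factor of 2. A level says how bright a probe was, and levels of different probes cannot be set against each other. The array files show 3 slides of 4 arrays. Slide 1, scanned on another day than the others, carried every water array together with the first low drinker pool. The remaining low drinker pools shared slide 2 with early high drinker pools 1 and 2. Slide 3 carried the last early high drinker pool beside all late high drinkers. The array of low drinker pool 2 stood apart among dim spots. Its lower-quartile signal was 63.2, against 22.3 to 34.0 on the other 11 arrays, and its negative controls had a median signal of 65.6 before background correction, against 39.7 to 51.4. In bulk tissue, a lower level can come from fewer cells of a type or from less RNA per cell, and these cannot be told apart.

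**Figure D1:**
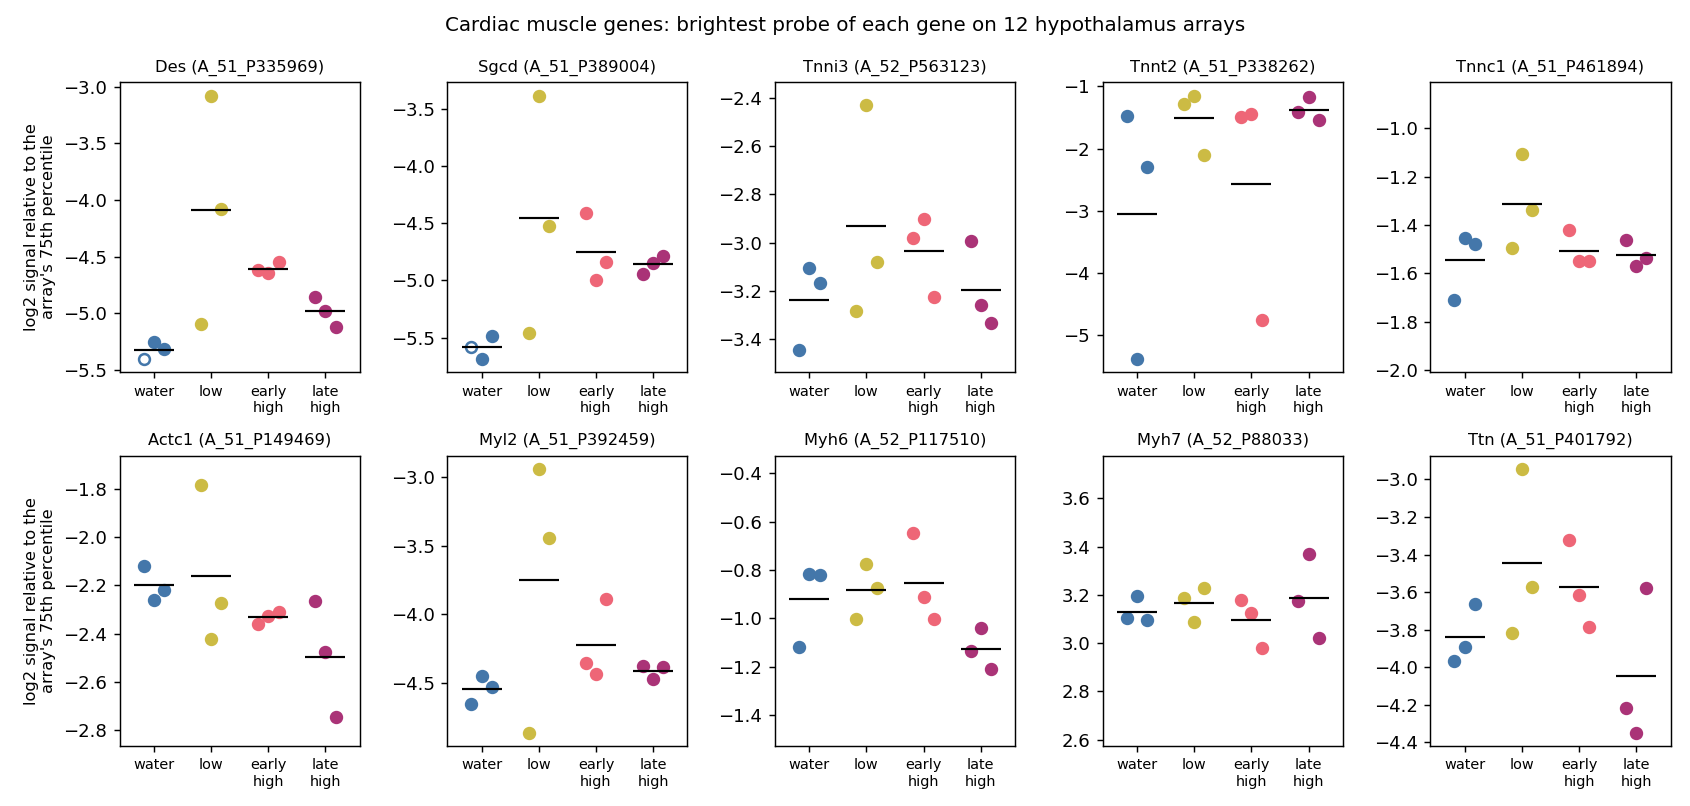
Log2 signal relative to the array's 75th percentile (y axis of each panel) for the brightest probe of each of the 10 genes, by drinking group (x axis). Each point is 1 array, black lines are group means of 3 arrays, open points were not well above background, and y axes differ between panels. Des and Sgcd lay higher in all 9 alcohol arrays than in the 3 water arrays, low drinker pool 2 was the highest point for Des, Sgcd, Tnni3, Tnnt2, Tnnc1, Myl2 and Ttn, and Tnnt2 was far down in 1 water and 1 early high drinker array.

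In the comparison of all alcohol pools with water, Sgcd was 0.90 higher in alcohol on the log2 scale (standard error 0.32, 3 against 9 arrays) and Des 0.77 higher (standard error 0.36). The dimmer of the troponin I probes, A_51_P386983, was 0.59 higher (standard error 0.27). None of these passed the adjustment for all probes tested. With limma and Benjamini-Hochberg adjustment over 32376 probes, 0 passed an adjusted p of 0.05 (0.0% of those tested), the smallest adjusted p was 0.819, and the 16 tested probes of the 10 genes had adjusted p-values from 0.819 to 0.996. The study's methods name a p and a false discovery rate, both under 0.05. At an unadjusted p under 0.05 alone, 2 of the 16 passed, both higher in alcohol, beside 5.53% of all probes tested (1789 probes). Their median difference was 0.13, beside 0.03 over all probes (0.06 and 0.02 without low drinker pool 2), and 11 of 16 were higher in alcohol, beside 59.6% of all probes. The study picked Des, Sgcd and Tnni3 on these arrays, so their values here are no independent evidence of a change.

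Desmin, the intermediate filament protein, was dim throughout. In water pools 1 to 3 its level was -5.40, -5.25 and -5.32. In the low drinker pools it was -5.09, -3.08 and -4.08, in the early high drinker pools -4.62, -4.64 and -4.55, and in the late high drinker pools -4.85, -4.98 and -5.12. All 9 alcohol arrays lay above all 3 water arrays. The group means ± SD (n = 3 each) were in the order low drinker -4.08 ± 1.01, early high drinker -4.60 ± 0.05, late high drinker -4.98 ± 0.13 and water -5.32 ± 0.07. The first and second of this order differed by less than the spread of the low drinker pools. On linear signal the 10 spots of a water array had medians of 41.4 to 42.5 units, and those of low drinker pool 2 a median of 176 units. Alcohol minus water gave an unadjusted p of 0.053 in the limma fit, and the exact permutation test, over its 220 splits of the arrays, gave a 2-sided p = 0.0636. Without low drinker pool 2 the difference was 0.58 (standard error 0.19, adjusted p = 0.644 with limma).

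Delta-sarcoglycan (Sgcd), a membrane part of the dystrophin complex, had the same 2 lowest groups. Its level was -5.58, -5.68 and -5.49 in the water pools and -5.46, -3.39 and -4.52 in the low drinker pools. It was -4.41, -4.99 and -4.84 in the early high and -4.95, -4.85 and -4.78 in the late high drinker pools. Again every alcohol array lay above every water array, but low drinker pool 1 lay next to the highest water pool. The group means ± SD (n = 3) were -4.46 ± 1.04 for low, -4.75 ± 0.30 for early high, -4.86 ± 0.08 for late high drinkers and -5.58 ± 0.10 for water, and the 3 alcohol groups overlapped with each other. The exact permutation test gave a 2-sided p = 0.0273 for alcohol minus water, where the smallest it can give is 0.00455. Without low drinker pool 2 the difference was 0.73 (standard error 0.18, adjusted p = 0.642 with limma). Of the 15 probes of these genes that had 12 values, Des and Sgcd were the 2 for which alcohol lay wholly above water, and 0 lay wholly below. Over all probes of that kind the shares were 0.982% and 0.325%.

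Of the troponins, cardiac troponin I (Tnni3) had probes well above background on all 12 arrays for both of its sequences, and they moved by different amounts. For A_51_P386983 the water pools were at -4.49, -4.36 and -4.26 and the low drinker pools at -4.27, -2.65 and -3.47. The early high drinker pools were at -3.81, -3.96 and -3.91, and the late high drinker pools at -3.95, -3.83 and -4.17. Low drinker pool 1 lay within the water range, and the other 8 alcohol arrays lay above it. The unadjusted p was 0.049 in the limma fit, and the exact permutation test gave a 2-sided p = 0.0773. For A_52_P563123, the brighter probe, water lay at -3.44, -3.10 and -3.17 and alcohol between -3.33 and -2.43 with a median of -3.08, so that the groups overlapped. Its alcohol minus water difference was 0.19 (standard error 0.17), 0.11 without low drinker pool 2 and -0.044 with slide as a fixed block. Pearson's r between both probes was 0.83 over the 12 arrays, which share their labelling and slides.

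Cardiac troponin T (Tnnt2), which anchors the troponin complex on tropomyosin, was the most uneven of the 10 genes. Its level was -1.48, -5.39 and -2.30 in water pools 1 to 3, -1.28, -1.15 and -2.11 in the low drinker pools, -1.49, -1.44 and -4.76 in the early high drinker pools and -1.41, -1.16 and -1.54 in the late high drinker pools. Water pool 2 and early high drinker pool 3 were far below the other 10 arrays, which ranged from -2.30 to -1.15. On linear signal these arrays read 37.7 and 67.6 units, and the others read 355 to 815 units. All 12 arrays were well above background. The whole range was 4.24 on the log2 scale, and 29 of 29521 probes with 12 values had a range this wide or wider, beside a median range of 0.48. The mean difference of alcohol minus water, 1.24 (standard error 0.85), had an exact permutation p = 0.0727 (2-sided), and it was 0.07 without water pool 2. The difference thus rested on 1 water array, and with each array left out in turn it ranged from 0.07 to 2.03. The second Tnnt2 probe, from a cDNA clone, lay at chr1:137735641-137735700 and was well above background only on low drinker pool 2.

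Troponin C (Tnnc1), the calcium-binding subunit shared by heart and slow skeletal muscle, varied little. It lay at -1.71, -1.45 and -1.48 in water, and the low drinker pools were at -1.50, -1.11 and -1.34. The early high and late high drinker pools lay between -1.57 and -1.42. Alcohol minus water was 0.10 (standard error 0.10). High minus low drinkers was -0.20 (standard error 0.09, unadjusted p = 0.050 in the limma fit, adjusted p = 0.339), and it was -0.10 without low drinker pool 2.

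Cardiac actin (Actc1), the thin filament protein, lay lower in alcohol than in water, unlike Des and Sgcd, by a difference within its error. Water lay at -2.12, -2.26 and -2.22, low drinkers at -1.79, -2.42 and -2.27, early high drinkers at -2.36, -2.33 and -2.31 and late high drinkers at -2.27, -2.48 and -2.74. The 8 alcohol arrays on slides 2 and 3 were all below the 3 water arrays, and the remaining one, low drinker pool 1 on slide 1, was the highest of the 12. Alcohol minus water was -0.13 (standard error 0.14), and with slide as a fixed block, which sets low drinker pool 1 alone against the water arrays, it changed sign to 0.42.

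Among the myosins, the regulatory light chain Myl2 lay at -4.65, -4.45 and -4.53 in water and at -4.86, -2.94 and -3.44 in low drinkers, so that the low drinker pools held both the lowest and the highest array. Early high drinkers lay at -4.36, -4.44 and -3.89 and late high drinkers at -4.38, -4.47 and -4.38. Alcohol minus water was 0.42 (standard error 0.33), and low drinker pool 1, on the slide of the water pools, was the 1 alcohol array below the water mean. The heavy chains moved much less. The brighter Myh6 probe, for the alpha heavy chain of adult mouse heart, ranged from -1.21 to -0.65 over the 12 arrays and differed by -0.04 (standard error 0.11) between alcohol and water. The second Myh6 probe differed by -0.16 (standard error 0.09). The array files list mRNA of both Myh6 and Myh7 for both Myh6 probes, so their signal cannot be given to Myh6 alone. Myh7, the beta heavy chain of slow muscle, had probes brighter than the 75th percentile on every array, at 2.98 to 3.37 for A_52_P88033 and 2.80 to 3.36 for A_51_P143162. Those probes share 55 of their 60 bases and are not separate measurements. Alcohol minus water was 0.02 (standard error 0.07) and -0.07 (standard error 0.10) for them.

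Titin (Ttn) had 9 probes at different places of its long gene. On the 3 that were well above background on all 12 arrays, alcohol minus water was 0.15 (standard error 0.24) for A_51_P401792, 0.0083 (standard error 0.20) for A_51_P148509, which turned to -0.21 with quantile normalization, and -0.20 (standard error 0.12) for A_51_P219312, which turned to 0.10 with slide as a fixed block. For A_51_P219312, taken from a tongue cDNA clone resembling a short titin isoform, the water pools lay at -3.64, -3.64 and -3.71 and the late high drinker pools at -3.93, -4.15 and -4.18. For A_51_P148509 water lay at -4.86, -4.62 and -4.49 and late high drinkers at -4.71, -5.13 and -5.31. The first of these had no overlap between water and late high drinkers, and the second overlapped. The Ttn probe A_52_P659477 was well above background on 5 of the 9 alcohol arrays but on no water array, and was at least 1.60-fold higher in alcohol (adjusted p = 0.819 with limma, in a fit without water pool 1, whose value was under the signal/noise limit). The alcohol mean behind this bound took in arrays not well above background. The highest array was low drinker pool 2, at -3.41, and without it the fitted log2 difference fell from 1.11 to 0.88. Of the other 5 probes, 4 were well above background on low drinker pool 2 alone, where they read 66.8 to 120 units of linear signal.

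**Figure D2:**
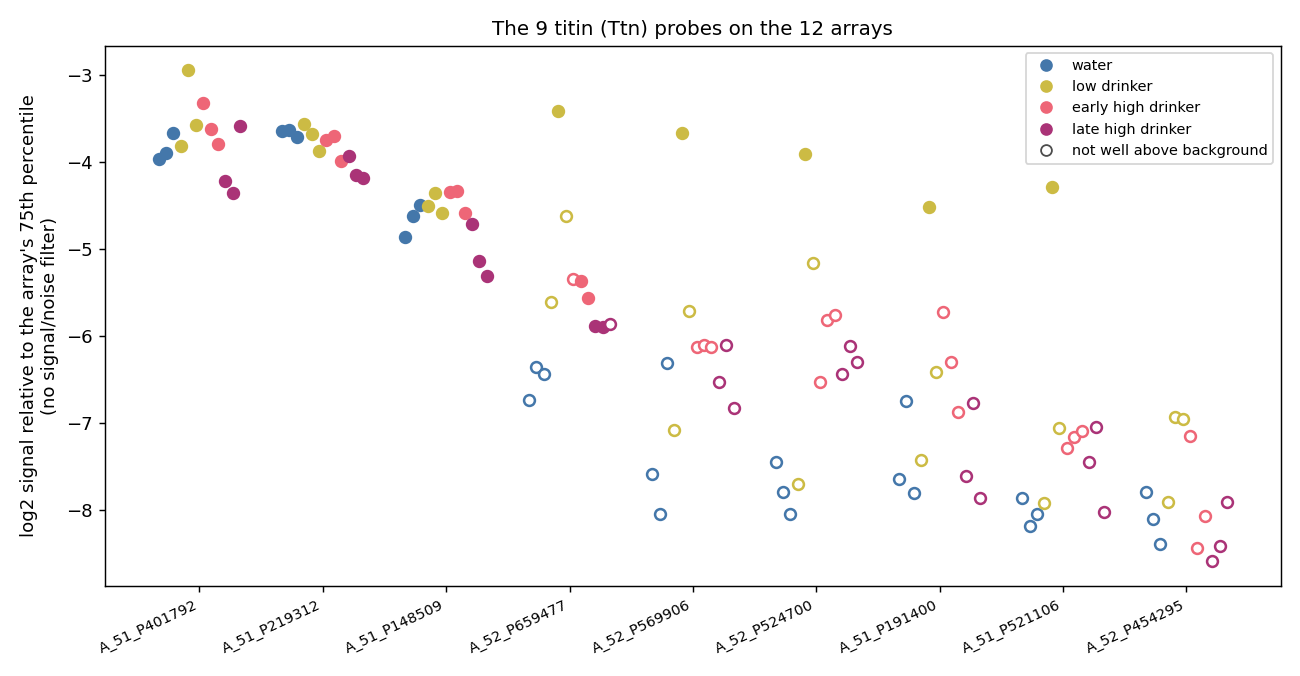
Log2 signal relative to the array's 75th percentile, with no signal/noise filter (y axis), for the 9 titin probes (x axis, brightest first), with 1 point per array coloured by group. Filled points were well above background. The 3 brightest probes are filled on all 12 arrays. Of the 5 dimmest, 4 have low drinker pool 2 as their one filled point, and 1 has no filled point.

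Against water, the low drinker pools were higher at an unadjusted p under 0.05 for 4 of 16 probes and lower for 0, beside 9.08% of all probes tested (8.33% higher and 0.749% lower). Of the 15 probes with all values, Des and Sgcd lay above water on every low drinker array and 0 lay below, beside 6.9% and 2.16% of all probes. They were Des (1.24, standard error 0.38), Sgcd (1.13, standard error 0.41), Tnni3 A_51_P386983 (0.91, standard error 0.31) and Ttn A_52_P659477 (at least 2.66-fold, well above background on 1 of the 3 low drinker arrays). None passed after adjustment, with adjusted p-values of 0.373 to 0.514 in limma, while 69 probes of the whole array did (0.218%). The median difference of the 16 was 0.27, beside 0.04 for all probes. With slide as a fixed block, where low drinker pool 1 is the single array set against water, Des was at 0.23, Sgcd at 0.12 and Tnni3 A_51_P386983 at 0.10, and none of the 4 had an unadjusted p under 0.05 (0.093 to 0.754 in the limma fit). Of the 16, Actc1 alone reached that level in that fit, at 0.42, beside 2.99% of all probes. Calls after adjustment turned on low drinker pool 1. Without low drinker pool 1, the low drinker pool that shared the slide with water, 5 of 16 probes passed the adjusted threshold (Des at 1.75 with adjusted p = 0.00354, Sgcd at 1.63 with 0.0106, Tnni3 A_51_P386983 at 1.31 with 0.00626, Myl2 at 1.36 with 0.0036, and the Ttn probe with 0.00468, all by limma), and 2482 probes of the array passed as well (8.09%). The low drinkers of that fit are pools 2 and 3 on slide 2, among them the array with the raised dim signal. Without low drinker pool 2, 1 probe of the array passed after adjustment and 0 of 16, as with all arrays. The 4 probes still had an unadjusted p under 0.05 there (0.0011 to 0.042 in the limma fit, beside 3.64% of all probes), but the differences fell to 0.74 for Des, 0.59 for Sgcd and 0.50 for Tnni3 A_51_P386983. For Ttn A_52_P659477 the fitted difference fell from 1.85 to 1.28, and no low drinker array was then well above background. The median of the 16 was then 0.14, beside 0.02 for all probes.

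The early high drinker pools gave 0 of 16 probes at an unadjusted p under 0.05 with limma, beside 4.7% of all probes (2.8% higher and 1.9% lower), and 0 probes of the array passed after adjustment (0.0%). Their median difference from water was 0.22, beside 0.02 for all probes. Of the 15 probes with all values, Des, Sgcd, Tnni3 A_51_P386983 and Myl2 had every early high drinker array above every water array (beside 10.8% of all probes) and Actc1 had every one below (beside 5.58%). All 5 changed sign with slide as a fixed block, a fit that reaches water on slide 1 only through the low drinker pools. Early high drinkers minus water was then -0.83 for Des, -0.62 for Sgcd, -0.72 for Tnni3 A_51_P386983, -1.52 for Myl2 and 0.42 for Actc1. Myl2 alone had an unadjusted p under 0.05 in that limma fit (0.00017, adjusted p = 0.157). Leaving out low drinker pool 1 or pool 2 brought 4 of 16 to an unadjusted p under 0.05, beside 8.12% and 7.8% of all probes in these fits. Comparing 3 with 3 arrays, an exact permutation test cannot go below p = 0.1.

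The late high drinker pools differed from water at an unadjusted p under 0.05 for 3 of 16 probes, all lower in late high drinkers, beside 15.9% of all probes (6.97% higher and 8.94% lower). After adjustment 0 probes of the array passed with limma (0.0%). They were Myh6 A_51_P512210 (-0.29, standard error 0.09), Ttn A_51_P148509 (-0.39, standard error 0.15) and Ttn A_51_P219312 (-0.43, standard error 0.10, adjusted p = 0.124 with limma). A share of 3 in 16 is close to that of the whole array. With slide as a fixed block all 3 lost this level (unadjusted p from 0.351 to 0.806 in the limma fit), and Ttn A_51_P219312 turned to 0.05. Des (-1.26), Myl2 (-2.05) and Tnnt2 (5.32) had an unadjusted p under 0.05 instead, with adjusted p-values of 0.168 to 0.626. In that fit 7.77% of all probes had an unadjusted p under 0.05. It reaches water on slide 1 only through the early high and low drinker pools, among them low drinker pools 2 and 3 on slide 2. For Tnnt2 it passes through early high drinker pool 3 and water pool 2, the arrays far below the others. Without the block the Tnnt2 difference was 1.68. With quantile normalization both Ttn probes lost the level (unadjusted p = 0.191 and 0.088 in limma), Myh6 A_51_P512210 kept it, and Sgcd was higher (0.67, unadjusted p = 0.031). Of the 15 probes with all values, Des, Sgcd and Tnni3 A_51_P386983 lay above water on every late high drinker array and Actc1, Myh6 A_51_P512210 and Ttn A_51_P219312 below, beside 12.5% and 13.5% of all probes. The median difference was 0.03, beside 0.0048 for all probes.

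High minus low drinkers, the mean of both high drinker groups against the low drinkers, was above 0 for 0 of 16 probes and for 35.1% of all probes. The median was -0.26, beside -0.05 for all probes, and -0.11 beside -0.01 without low drinker pool 2. Des was then at -0.21, Tnni3 A_51_P386983 at -0.07 and Myl2 at -0.17. With quantile normalization Ttn A_51_P148509 (0.23) and A_51_P219312 (0.08) turned above 0, and without low drinker pool 2 Sgcd (0.19) and Tnni3 A_52_P563123 (0.07) did. With slide as a fixed block Tnnt2 (1.85), Myh7 A_51_P143162 (0.22), Myh7 A_52_P88033 (0.10) and Myh6 A_51_P512210 (0.02) did. At an unadjusted p under 0.05, 3 of 16 were lower in high drinkers (Tnnc1, Ttn A_51_P219312 and Ttn A_52_P659477), beside 14.7% of all probes (3.4% higher and 11.3% lower). After adjustment by limma 0 of 16 passed, beside 7 probes of the array (0.0221%). Ttn A_51_P219312 differed by -0.25 (standard error 0.09, adjusted p = 0.279), and by -0.0015 with slide as a fixed block. Tnnc1 also lost its unadjusted p under 0.05 with that block (0.0996 in the limma fit). The block gave larger differences for Des (-1.27, unadjusted p = 0.0034 in limma) and Tnni3 A_51_P386983 (-0.86, 0.014). Ttn A_52_P659477 kept its level (unadjusted p = 0.0058 in limma). It was well above background on 1 of 3 low and 4 of 6 high drinker arrays, so its difference is not given. With the block, Myl2 passed after adjustment (-1.47, adjusted p = 0.034 with limma), beside 52 probes of the array (0.164%). At an unadjusted p under 0.05 the block gave 13.9% of all probes. Within slides, the block sets high drinkers against low drinker pools 2 and 3 alone, among them the array with the raised dim signal. Without low drinker pool 1, Des (-1.21), Tnni3 A_51_P386983 (-0.88), Myl2 (-1.13) and the Ttn probe A_52_P659477 passed the adjusted threshold, with adjusted p-values of 0.0112 to 0.0271 in limma, beside 2255 probes of the array (7.35%). The low drinkers of that fit are again the pools on slide 2 alone. Low, early high and late high drinkers were all set against the same 3 water arrays, so these comparisons are not independent of each other.

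**Figure D3:**
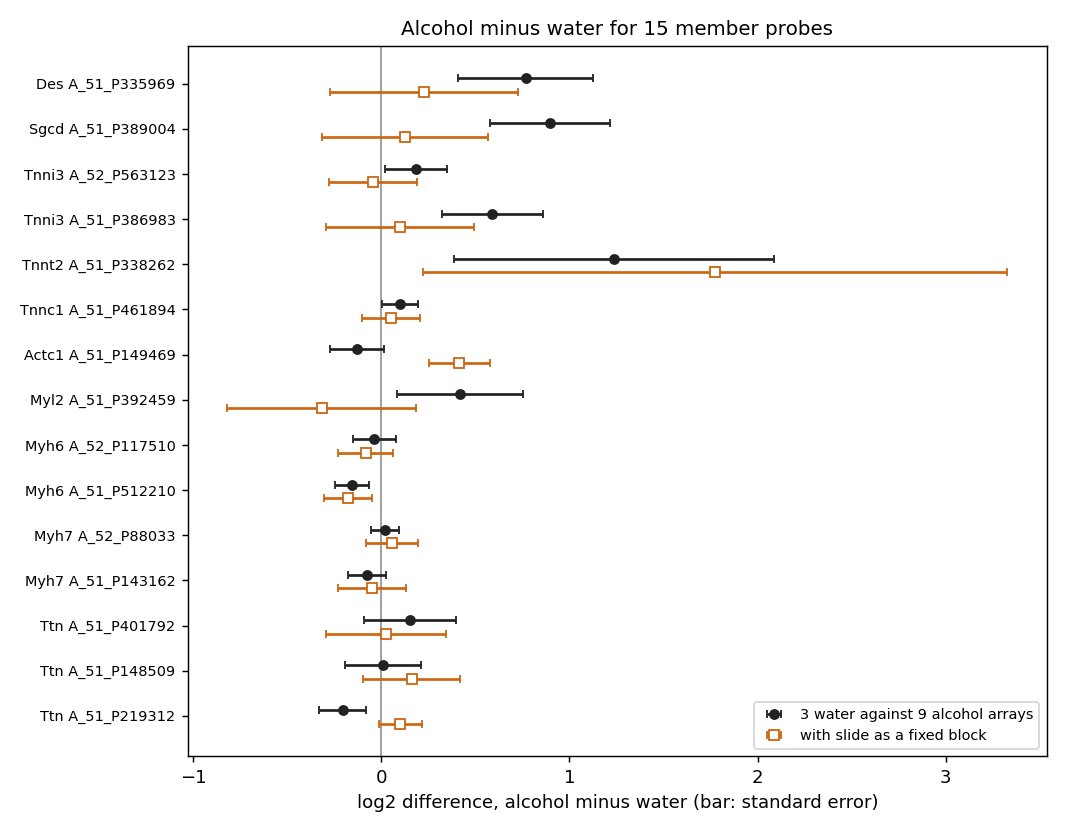
Log2 difference of alcohol minus water (x axis) for 15 probes of the 10 genes (y axis), with standard errors as bars. Black points compare 3 water with 9 alcohol arrays, and orange squares add the slide as a fixed block, which leaves low drinker pool 1 as the alcohol array set against water within a slide. Des moved from 0.77 to 0.23 and Sgcd from 0.90 to 0.12, and the Ttn probe that was well above background on no water array is not drawn.

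Slide and group overlapped in this design, and the values were therefore taken within slides as well. On slide 1, low drinker pool 1 minus the mean of the 3 water pools was 0.23 for Des, 0.12 for Sgcd, 0.10 for Tnni3 A_51_P386983 and -0.32 for Myl2. With slide as a fixed block, alcohol minus water took the same values, with standard errors of 0.50 for Des and 0.44 for Sgcd. On slide 2, early high drinker pools 1 and 2 were lower than low drinker pools 2 and 3, by -1.05 for Des, -0.75 for Sgcd and -0.82 for Tnni3 A_51_P386983. On slide 3, the late high drinker pools minus early high drinker pool 3 gave -0.44 for Des and -0.02 for Sgcd. Sgcd and Tnni3 A_51_P386983 had all 4 arrays of slide 1 below the other 8, as did 2.83% of all probes with 12 values. For Des, low drinker pool 1 lay above late high drinker pool 3. Actc1 had all 4 arrays of slide 1 above the other 8, as did 0.823% of all probes. No water pool lay on slide 2 or 3, and for 8 of the 9 alcohol pools slide and alcohol cannot be told apart.

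**Figure D4:**
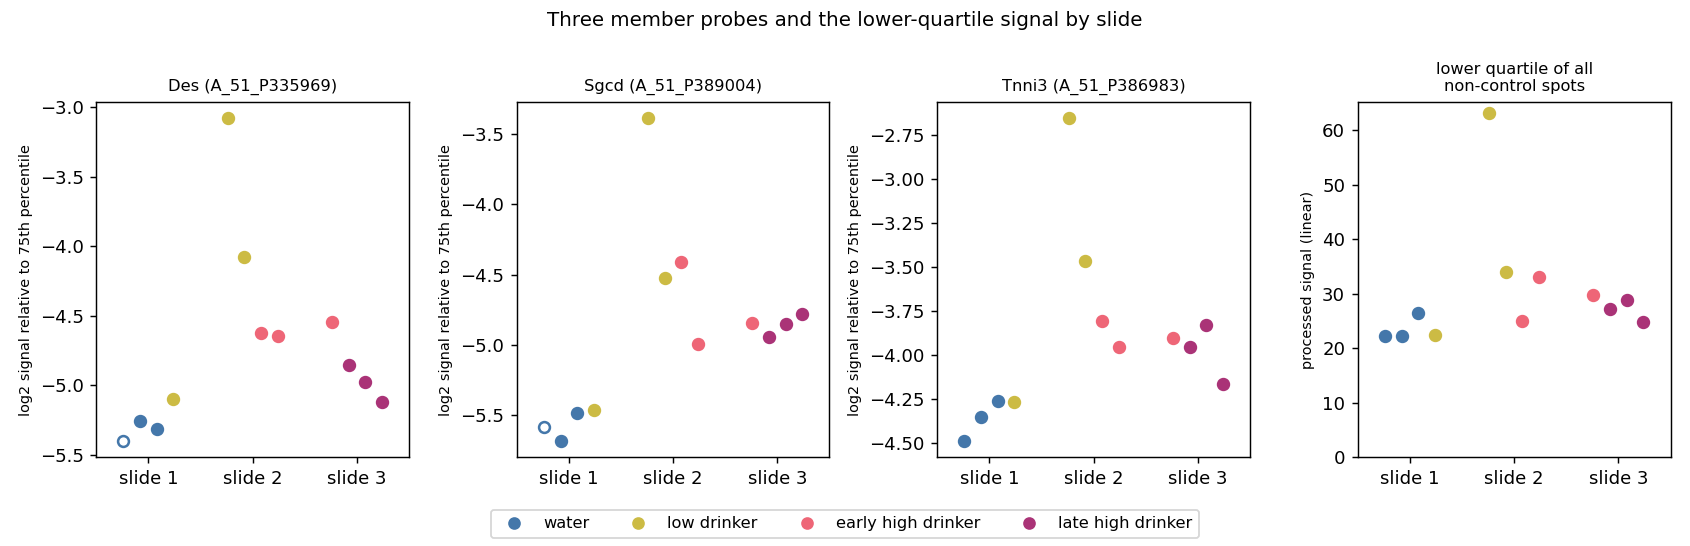
The first 3 panels show log2 signal relative to the array's 75th percentile (y axis) for Des, Sgcd and Tnni3 A_51_P386983, and the last shows the linear lower-quartile signal of all non-control spots, each by slide (x axis) with 1 point per array coloured by group. Open points were not well above background. The arrays of slide 1, the water pools and low drinker pool 1, are the lowest for Sgcd and Tnni3 A_51_P386983, and low drinker pool 2 on slide 2 has the highest value in all 4 panels.

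Low drinker pool 2 had the highest level for 8 of the 15 probes with 12 values, beside 28.2% of all such probes, and for 16 of all 23 probes without the signal/noise filter, beside 36.4%. Its raised dim signal moved with the levels of Des, Sgcd, Tnni3, Myl2 and Ttn A_51_P401792, while on Ttn A_51_P219312 that array, at -3.68, lay among the water arrays. Apart from leaving the array out, its part in them was not tested. Markers of other cell types were read on the same arrays, each gene by its brightest probe, as the summed linear signal of the list in units of the array's 75th percentile. Of 11 cardiomyocyte markers, 9 were well above background on all 12 arrays, Myoz2 on 3 and Ankrd1 on 1. Their sum was 0.70 to 0.78 in water, 0.76 to 1.28 in low drinkers, 0.71 to 0.85 in early high and 0.64 to 0.745 in late high drinkers. In alcohol minus water the largest rise among those well above background on all arrays was that of Tcap, which encodes a titin-binding protein (0.41, standard error 0.19), and the largest fall that of Myl3, a myosin light chain (-0.11, standard error 0.17). None of the 10 tested passed an unadjusted p under 0.05 in that comparison with limma. In low drinkers minus water 3 of 10 were higher at that level, beside 8.33% of all probes, with a median of 0.50 beside 0.04. In high minus low drinkers 6 of 10 were lower, beside 11.3% of all probes, with a median of -0.47 beside -0.05. Both counts took in low drinker pool 2, with its raised dim signal, and were not taken without it. The shares over all probes cover bright probes as well. None of these markers passed after adjustment in any comparison. Their part in the values of the 10 genes was not tested.

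Skeletal muscle markers gave sums of 1.49 to 1.58 in water, 1.65 to 2.23 in low, 1.54 to 1.72 in early high and 1.48 to 1.69 in late high drinkers. Ckm, the muscle creatine kinase, was well above background on none of the 12 arrays. Of the 10 tested, 4 were higher in low drinkers than in water at an unadjusted p under 0.05, beside 8.33% of all probes. That count, too, was taken only with low drinker pool 2 included. Smooth muscle and pericyte markers of blood vessels, which can carry desmin, gave 19.4 to 20.02 in water, 19.4 to 22.9 in low, 21.3 to 22.6 in early high and 19.3 to 22.3 in late high drinkers. Of these 9 genes, Cnn1 had the largest rise in alcohol minus water, 0.51 (standard error 0.27), and Acta2, smooth muscle actin, the one fall, -0.02 (standard error 0.09). At an unadjusted p under 0.05 in limma, 0 of 9 passed in that comparison, 2 were higher in low drinkers than in water (beside 8.33% of all probes), and 1 was higher and 1 lower in high than in low drinkers (beside 3.4% and 11.3%). The part of vessel cells in the desmin values was not tested. Endothelial marker sums were 14.5 to 16.3 in water and 12.8 to 16.9 in alcohol, fibroblast sums 6.27 to 7.03 and 5.79 to 8.53. The 10 hypothalamic markers, among them Pmch, Oxt and Trh, summed to 153 to 184 in water and 161 to 209 in alcohol, with 9 well above background on all arrays and Sim1 on 11.

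Other genes of the dilated cardiomyopathy pathway were counted by their brightest probes for alcohol minus water, beside the 3.85% of all probes that were higher and 1.68% that were lower at an unadjusted p under 0.05. Of the 15 other dystrophin complex genes tested, 0 passed in either direction, with a median of -0.02. Among lead probes well above background on all arrays, their largest rise was that of the syntrophin gene Sntb2 (0.13, standard error 0.09) and the largest fall that of sarcospan, Sspn (-0.22, standard error 0.20). Of 10 further filament and nuclear envelope genes 0 passed, with Tpm2, a tropomyosin, at 0.28 (standard error 0.14) and Emd, emerin, at -0.15 (standard error 0.10). Of 33 genes of beta-adrenergic and calcium signalling and growth factors, 1 was higher and 0 were lower. That gene was the growth factor Igf1, at 0.32 (standard error 0.08, adjusted p = 0.819 with limma), with water at a mean of -2.65 ± 0.10 (SD, n = 3) and alcohol between -2.53 and -2.17. The calcium channel subunit gene Cacna2d4 differed by 0.29 (standard error 0.16), and the related Cacna2d2 had the largest fall among lead probes well above background on all arrays, -0.14 (standard error 0.17). Of 20 integrin genes 0 passed, and Itga10 (0.56, standard error 0.43) and Itga4 (-0.50, standard error 0.53) were the extremes among those well above background on all arrays. In low drinkers minus water, Itga2 alone among these lists passed after adjustment (adjusted p = 0.024 with limma), and it was well above background on 1 of 12 arrays.

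Relatives of the 10 genes from other muscle types or cells were counted in the same way. Of 26, 1 was higher and 1 lower in alcohol at an unadjusted p under 0.05, with a median of 0.06. The higher one was Tnni1, troponin I of slow skeletal muscle, at 0.69 (standard error 0.30, adjusted p = 0.819 with limma), with water at a mean of -4.68 ± 0.20 and alcohol between -4.58 and -2.73. The lower one was Actg2, smooth muscle gamma-actin, at -0.14 (standard error 0.06). In low drinkers minus water 6 of the 26 were higher and 1 lower at that level, beside 8.33% and 0.749% of all probes.

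For 8 of the 10 genes, there was a brightest probe well above background on all 12 arrays, and the genes with the most similar levels were sought by Pearson's r over 12 arrays among 26032 probes. The arrays share slides and the raised dim signal of low drinker pool 2, and r is given as a description. Nearest to Tnni3 was Mobkl2b (r = 0.96), nearest to Tnnc1 Zfp84 (0.97), nearest to Myl2 the clone AK015959 (0.97) and Cnnm3 (0.97), and nearest to Ttn Nacc1 (0.94). Nearest to Tnnt2 was Rassf8 (0.89), whose range of 0.45 on the log2 scale was much smaller than that of Tnnt2. Nearest to Actc1 was Slc38a5 (0.89), to Myh6 Sypl (0.95), and to Myh7 C130022K22Rik (0.91) and Dpp6 (0.91). None of the 3 nearest genes of any of them was another of the 10.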

How the data were processed

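RNA from 12 pools of hypothalamus was labelled with Cy3 and hybridized to Agilent 4 x 44K arrays. The authors deposited the signal intensity of each spot, which Feature Extraction 10.5.1.1 (per the files, while the methods name an earlier version) had corrected for background, linear and not scaled between arrays. They also deposited a table of signal intensity, of which 99.4% of values equalled the scanner values within a relative difference of 0.0001. Here intensity was taken to log2 minus log2 of the 75th percentile of 43379 non-control spots. Outlier spots and spots with signal/noise under 2 were set to missing, and spots of a probe were averaged. Probes with values on over 50% of arrays of each group were tested with limma 3.58.1 (R 4.3.3), Benjamini-Hochberg adjusted over all probes. Alcohol minus water used 2 groups, the others 4 groups. Single probes were tested by exact permutation. The number of arrays limits the precision, and p-values measure the spread between pools. A bound ("at least") starts from the mean of all arrays of the brighter group, well above background or not. It is set against, per array of the dimmer group, the higher of the lowest signal well above background and the probe's own. Each gene was led by its probe with the highest mean. From other lists, named genes were among the 3 largest rises and 3 largest falls of alcohol minus water, over lead probes well above background on all arrays. The genes and lists were chosen with earlier results of these data known. Of 23 probes, 20 matched a RefSeq accession with the same symbol. The fits were tested on simulated data. Same-numbered pools did not vary together (correlations -0.09 to 0.18), so numbers were not taken as pairs. Alternatives covered background, scaling, input table, filters, slide, replicate number, the methods' t-test and each array left out. Real-time PCR was not analysed here.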

Additional observations from a re-analysis of the deposited data

Results flagged for a closer look

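Within the 9 alcohol arrays, 16 probes were checked for a highest or lowest array whose gap to its neighbour took more of the whole range than Dixon's critical value allows. Chance gives about 1 in 20 such groups, and 6 were found. The probes share the same 9 arrays, which span 3 drinking groups and 3 slides, so the 6 are not independent and cannot be set against that rate. Low drinker pool 2 was the highest array for Sgcd (gap 0.493 of the range), Tnni3 A_52_P563123 (0.522), Tnni3 A_51_P386983 (0.503) and Tnnc1 (0.494). Early high drinker pool 3 was the lowest for Tnnt2 (0.734), and low drinker pool 1 was the highest for Actc1 (0.502).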

How the results depend on the processing

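Adjusted over all probes by limma, the 10 genes had 0 probes past 0.05 in every comparison and setting run except high minus low drinkers with slide as a fixed block (Myl2) and the fits without low drinker pool 1 given above. Counts over the array moved more. For alcohol minus water it was 0, and 4 with slide as a fixed block. For low drinkers minus water it was 69, and it became 6 with quantile normalization, 0 without the signal/noise filter, 1 with only probes well above background on all arrays, 0 with slide as a fixed block and 30 as a random block. For late high drinkers minus water it was 0, and 64 with only such probes. For high minus low drinkers it was 7, and it became 161 with normexp, 1 with quantile normalization, 11 with no scaling, 3 with the authors' table, 0 without the signal/noise filter, 0 with only such probes, 52 with slide as a fixed block and 3 as a random block.

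At an unadjusted p under 0.05, the 2 of 16 probes in alcohol minus water stood beside 5.53% of all probes. The count became 0 with normexp (beside 3.41%), 4 with quantile normalization (6.12%) and 4 with no scaling (5.05%). It became 1 of 13 with only probes well above background (5.68%). Slide gave 1 as a fixed block (2.1%) and 0 as a random block (1.59%). The methods' t-test gave 1 (5.21%), and its form for unequal variances gave 5 (11.3%). In low drinkers minus water, the count of 4 stood beside 9.08% of all probes. It became 8 of 23 without the signal/noise filter (13.8%) and 2 of 13 with only bright probes (6.42%). The fixed slide block left 1 (2.99%). In early high drinkers minus water, 0 became 1 with quantile normalization (beside 4.76% of all probes) and 1 with no scaling (3.3%). It was 2 of 23 without the filter (3.36%) and 1 (Myl2, lower) with slide as a fixed block (6.94%). In late high drinkers minus water the count of 3 stayed with slide as a fixed block (beside 7.77% of all probes), but for other probes. With quantile normalization it was 2 (beside 16.1%), of which 1 (Sgcd) was higher. In high minus low drinkers, 3 became 5 with normexp (beside 20.8% of all probes) and 1 with no scaling (15.1%). By exact permutation for alcohol minus water, 1 probe (Sgcd) had p under 0.05, and the count was 0 with normexp, 3 with quantile normalization, 2 with no scaling, 3 without the filter and 0 with only bright probes.

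With each array left out in turn, alcohol minus water gave 0 to 0 probes over the array after adjustment. At an unadjusted p under 0.05 it gave 0 to 4 of the 16 probes, beside 3.73% to 9.04% of all probes. Low drinkers minus water gave 0 to 2482 and 3 to 7 in the same order, beside 3.64% to 20.4%. Early high drinkers minus water gave 0 to 1 and 0 to 4, beside 3.18% to 8.12%. Late high drinkers minus water gave 0 to 442 and 2 to 5, beside 11.3% to 18.3%. High minus low drinkers gave 0 to 2255 and 1 to 7, beside 9.02% to 24.4%. Without water pool 2 or water pool 3, 15 probes were tested in place of 16. The 1 in high minus low drinkers came from both of those fits. The count by exact permutation was 0 to 3. The count of 0 of 15 in alcohol minus water came without water pool 2, the 442 without late high drinker pool 3, and the 2482 and 2255 without low drinker pool 1.

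For alcohol minus water the sign turned with slide as a fixed block for Tnni3 A_52_P563123 (-0.044), Actc1 (0.42, and 0.012 as a random block), Myl2 (-0.32) and Ttn A_51_P219312 (0.10, and 0.051 for late high drinkers minus water). Ttn A_51_P148509 turned with normexp (-0.0091) and quantile normalization (-0.21), and Ttn A_51_P219312 turned to 0.079 with quantile normalization in high minus low drinkers. Leaving out arrays gave -0.14 to 0.015 for Myh6 A_52_P117510, -0.0077 to 0.051 for Myh7 A_52_P88033 and -0.092 to 0.091 for Ttn A_51_P148509. The cause of these changes was not tested.

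Pools of the same number did not vary together, and 5 of 12 arrays correlated best with an array of their own number. With the replicate block, 1 of 16 probes had an unadjusted p under 0.05 in alcohol minus water, beside 5.41% of all probes. After adjustment, the counts over the array were 7 for low drinkers minus water and 0 for high minus low drinkers.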

Other observations

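The Tnnt2 level was lowest on water pool 2 and early high drinker pool 3. These were the lowest arrays for 201 of the 29521 probes with 12 values, and among them Tnnt2 alone had a gap of over 2 on the log2 scale to the next array (2.46, while the next largest gap was 0.64). These counts were made after the Tnnt2 values had been seen. Probes within 150000 bases of it on chromosome 1 of mm9 that were well above background on all 12 arrays belonged to Csrp1, Phlda3 and Tnni1. Csrp1 was at 3.92 on water pool 2 and 4.02 on early high drinker pool 3, with the other 10 arrays from 3.56 to 3.94. Phlda3 was at 4.12 and 4.02, with the others from 3.94 to 4.11. Tnni1 A_51_P435704 was at -5.38 and -5.46, with the others from -5.40 to -3.18. Tnni1 A_52_P657360 was lowest on water pool 2, at -4.87, and was at -4.58 on early high drinker pool 3, with the others from -4.69 to -2.73.

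The 10 desmin spots of an array give its technical spread. Their SD on the log2 scale was 0.13 to 0.38 on 11 arrays and 0.57 on late high drinker pool 1, where the brightest spot read 157 units and the median spot 54.9 units of linear signal.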
